A study of Mus musculus with 6 samples.

Results

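The oligoadenylate synthetases (OAS) and the Mx proteins are antiviral proteins whose genes are switched on by interferon. The 8 genes were chosen by name: Oas1a, Oas1g, Oas2, Oas3, Oasl1, Oasl2, Mx1 and Mx2. Of the 17352 genes in the deposited table, 6 of these 8 had a row, and all 6 passed the filter on low values, a mean of at least 0.5 FPKM (fragment counts scaled for transcript length and library depth). Mx1 and Mx2 had no row and are not analysed here.

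Panc02 cells, a line of mouse pancreatic cancer, were implanted under the skin of mice, and the RNA of whole tumours was sequenced 4 weeks later. In 3 tumours (deficient 3, 4 and 5) the host was an Anxa1ΔMɸ mouse, which lacks annexin A1, a phospholipid-binding regulator of inflammation, in its myeloid cells. In the other 3 (wild type 2, 3 and 5) the host was an Anxa1 flox/flox mouse, which carries the loxP-flanked gene. The labels do not name the Cre driver, the mouse strain or the age, and the implanted cancer cells are the same line in both groups. Every sample label also carries the letters HFD, which are not defined. Numbers are those of the labels, which do not say that equal numbers are paired animals, so the main fit uses no pairing. Its p-values, from limma, set the difference between groups against the spread between tumours within each group. That spread is drawn towards a trend over all genes tested. The title of the study asks about the cGAS/STING pathway, a route from cytosolic DNA to type I interferon, to which OAS genes respond.

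OAS enzymes bind double-stranded RNA and join ATP molecules into short 2′-5′-linked chains (2-5A). These chains are second messengers that lead to the cutting of viral and cellular RNA. Type I interferon reaches these genes through the receptor chains Ifnar1 and Ifnar2 and the transcription factor complex ISGF3, which includes Stat2 and Irf9 and binds the interferon-stimulated response element (ISRE), while interferon gamma acts mainly at the gamma-activated site (GAS). Mx proteins are dynamin-like GTPases that trap viral nucleocapsids, and many inbred mouse strains carry defective Mx1 and Mx2 genes. RefSeq (GRCm38.p6) types both of them, and Oas1b, as transcribed pseudogenes, a class of which 12 of 487 genes had a row in the deposited table, against 17098 of 21896 protein-coding genes.

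The promoter sequences below show where exact matches to the ISRE core lie close to the transcription start, and how alike the 2 Oas1 copies are. The windows come from RefSeq (GRCm38.p6) and run from 250 bases before to 50 after the start site, and 5 of the 8 genes had one in the table. They lie on chromosome 5, at chr5:120907476-120907775 on the minus strand for Oas1a, chr5:120887564-120887863 (minus) for Oas1g, chr5:120777610-120777909 (minus) for Oas3, chr5:114922990-114923289 (plus) for Oasl1 and chr5:114896684-114896983 (plus) for Oasl2. Capitals mark the ISRE core, written GAAA, any 2 bases, GAAA.
Oas1a: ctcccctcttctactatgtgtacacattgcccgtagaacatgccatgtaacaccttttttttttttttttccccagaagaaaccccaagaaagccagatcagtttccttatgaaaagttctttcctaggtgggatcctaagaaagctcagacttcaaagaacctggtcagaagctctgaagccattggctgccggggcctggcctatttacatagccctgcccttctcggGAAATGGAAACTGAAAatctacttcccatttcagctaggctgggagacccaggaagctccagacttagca
Oas1g: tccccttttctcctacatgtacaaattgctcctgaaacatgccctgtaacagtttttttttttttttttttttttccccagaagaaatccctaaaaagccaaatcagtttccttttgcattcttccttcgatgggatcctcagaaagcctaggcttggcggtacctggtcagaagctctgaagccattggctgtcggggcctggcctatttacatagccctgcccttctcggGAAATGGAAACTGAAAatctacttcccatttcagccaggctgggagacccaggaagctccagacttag
Oas3: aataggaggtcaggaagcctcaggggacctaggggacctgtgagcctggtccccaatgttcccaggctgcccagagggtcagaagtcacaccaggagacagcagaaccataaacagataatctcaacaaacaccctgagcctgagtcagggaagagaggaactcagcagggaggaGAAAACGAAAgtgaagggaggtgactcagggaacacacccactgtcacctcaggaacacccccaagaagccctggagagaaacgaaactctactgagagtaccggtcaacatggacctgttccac
Oasl1: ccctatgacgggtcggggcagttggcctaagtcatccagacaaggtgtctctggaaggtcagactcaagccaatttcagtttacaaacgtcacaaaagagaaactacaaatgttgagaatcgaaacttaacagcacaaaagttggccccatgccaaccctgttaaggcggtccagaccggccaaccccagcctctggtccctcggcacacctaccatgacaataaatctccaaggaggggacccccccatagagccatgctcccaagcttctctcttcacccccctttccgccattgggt

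The ISRE core, searched on both strands, was in 3 of the 5 windows, Oas1a, Oas1g and Oas3, against 3.44% of the 32851 promoters in the table. Oas1a and Oas1g each held a pair of overlapping matches that share a GAAA, printed as 1 run of capitals, starting 20 and 14 bases before the start site in Oas1a and 18 and 12 bases before it in Oas1g. The Oas3 match began 75 bases before the start. The GAS core, written TTC, any 3 bases, GAA and searched on both strands, was in the Oas1a window only among these 5, starting 98 bases before the start, and in 8.30% of all promoters. The Oasl1 window held no exact match to either motif, nor did that of Oasl2, which is not printed. Only exact matches within these windows were searched, so a gene without one is not shown to lack an ISRE. Binding of ISGF3 was not measured, and Oas2 had no window. The Oas1a and Oas1g windows were identical at 85.3% of 306 aligned positions, whereas the other 9 pairs were identical at 45.9% to 50.3%.

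Anxa1 itself had 249.9, 330.2 and 290.5 FPKM in deficient tumours and 341.8, 354.4 and 394.2 FPKM in wild-type tumours. Every deficient tumour lay below every wild-type tumour, as for 8.31% of all genes tested, but the difference did not pass the threshold (log2 fold change -0.33, SE 0.12; limma adjusted p = 0.268). In bulk tumour a smaller number of cells of one type and a lower level of RNA per cell cannot be told apart, and this holds for every value below. Libraries held 37465504 to 41071630 fragments, as implied by the spacing of the values. Across all 12257 genes tested, 0.979% were called higher and 0.228% lower at an adjusted p under 0.05, by limma on log2(FPKM + 1).

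All 6 OAS genes averaged higher in deficient than in wild-type tumours, by 1.17 to 2.66 times in mean FPKM, and none of them passed the threshold. The median log2 fold change of the 6 was 1.03, against 0.02 over all genes tested, and 54.7% of all genes had a log2 fold change above 0. At an unadjusted p under 0.05, limma placed 4 of the 6 as higher (Oas1a, Oas1g, Oas2 and Oasl2), against 9.86% of all genes, and limma-voom on recovered fragments placed 4 there as well, with 0 called against 0.548% of all genes called higher. In Oas1a and Oas1g, 2 of the 6, every deficient tumour lay above every wild-type tumour, as did 11.8% of all genes. For a single gene tested alone, an exact permutation test with 3 tumours in each group cannot give a two-sided p below 0.1.

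The synthetases that make 2-5A come first. Oas1a, a small synthetase of the Oas1 cluster, had 18.0, 14.6 and 13.9 FPKM in deficient 3, 4 and 5, against 12.4, 5.27 and 4.38 FPKM in wild type 2, 3 and 5. The lowest deficient tumour stood just above wild type 2, while wild type 3 and 5 lay far below all others. The means were 15.5 ± 2.17 FPKM in deficient and 7.36 ± 4.42 FPKM in wild-type tumours (SD, n = 3 each), and the log2 fold change was 1.09 (SE 0.31, 95% interval 0.36 to 1.82; limma adjusted p = 0.169). Oas1g, its near copy in the same cluster and also a synthetase, had 6.10, 3.94 and 4.28 FPKM in deficient 3, 4 and 5, against 3.04, 1.48 and 0.947 FPKM in wild type 2, 3 and 5. The groups did not overlap, and wild type 2 was again the highest of its group. The means were 4.77 ± 1.16 and 1.82 ± 1.09 FPKM in deficient and wild-type tumours, and the log2 fold change was 1.08 (SE 0.27, 95% interval 0.46 to 1.70; limma adjusted p = 0.123). The split of fragments between these 2 genes is uncertain: of all 150-base stretches of their GENCODE transcripts, the read length here, 32.4% of those of Oas1a and 24.1% of those of Oas1g occur in the other gene. None of the stretches of Oas2, Oas3, Oasl1 or Oasl2 occurs in another OAS gene.

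Oas2, a synthetase with a duplicated OAS unit, had 7.28, 3.14 and 3.43 FPKM in deficient 3, 4 and 5, against 3.25, 1.02 and 0.939 FPKM in wild type 2, 3 and 5. Deficient 3 stood at more than 2 times any other tumour, and the groups overlapped because wild type 2 lay above deficient 4. The means were 4.62 ± 2.31 FPKM in deficient and 1.74 ± 1.31 FPKM in wild-type tumours, 2.66 times apart, and the log2 fold change was 1.06 (SE 0.36, 95% interval 0.22 to 1.91; limma adjusted p = 0.233). Oas3, the synthetase with a triplicated unit, known in human cells as a main maker of 2-5A, had 5.05, 3.89 and 2.06 FPKM in deficient 3, 4 and 5, against 3.36, 1.35 and 0.836 FPKM in wild type 2, 3 and 5. Here deficient 5 lay below wild type 2, so the groups overlapped. The means were 3.67 ± 1.51 and 1.85 ± 1.33 FPKM in deficient and wild-type tumours, and the log2 fold change was 0.75 (SE 0.35, 95% interval -0.06 to 1.57; limma adjusted p = 0.372).

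The 2 OAS-like genes, whose proteins carry ubiquitin-like domains, form a separate pair on the same chromosome. Oasl2, which keeps synthetase activity in mouse, was the most abundant of the 6, at 52.9, 32.3 and 32.6 FPKM in deficient 3, 4 and 5, against 36.3, 15.9 and 10.8 FPKM in wild type 2, 3 and 5. Wild type 2 exceeded deficient 4 and 5, so the groups overlapped. The means were 39.3 ± 11.8 FPKM in deficient and 21.0 ± 13.5 FPKM in wild-type tumours, and the log2 fold change was 1.01 (SE 0.40, 95% interval 0.08 to 1.93; limma adjusted p = 0.300). Oasl1, which has no synthetase activity and in mouse restrains translation of the Irf7 mRNA, had 10.3, 10.1 and 4.89 FPKM in deficient 3, 4 and 5, against 14.0, 4.81 and 2.76 FPKM in wild type 2, 3 and 5. It was the one gene of the 6 in which a wild-type tumour, wild type 2, stood above all deficient tumours. The means were 8.44 ± 3.08 and 7.21 ± 6.01 FPKM in deficient and wild-type tumours, and the log2 fold change was 0.39 (SE 0.49, 95% interval -0.74 to 1.53; limma adjusted p = 0.761).

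**Figure D1:**
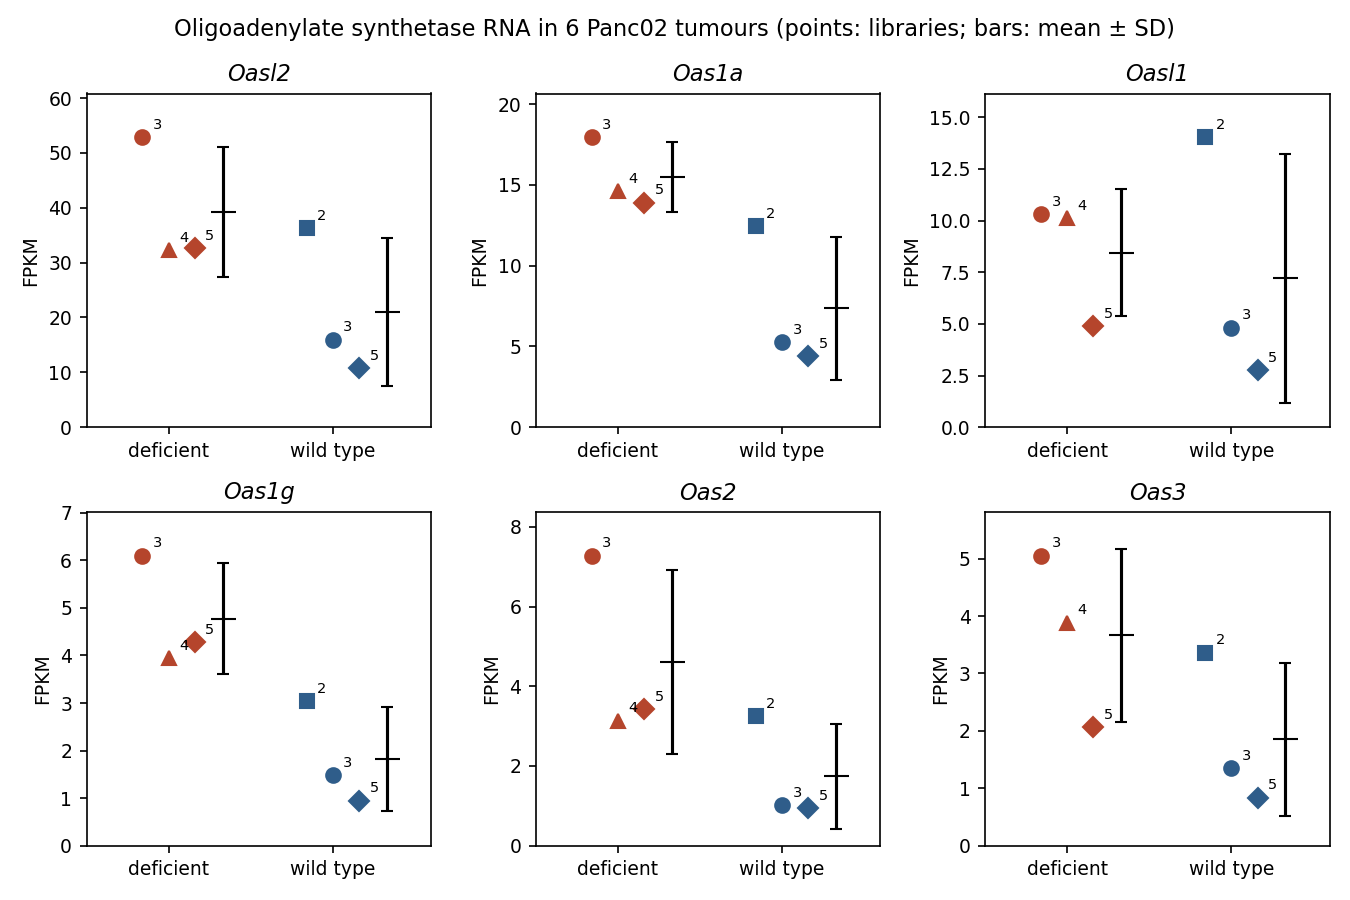
FPKM of each OAS gene (y axis, linear, own scale per panel) in the 3 deficient and the 3 wild-type tumours (x axis); points are libraries with their numbers, and bars the mean ± SD. Wild type 2 sits above wild type 3 and 5 in all 6 panels, and at 14.0 FPKM above every deficient tumour for Oasl1.

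The 6 genes ordered the tumours in much the same way. Deficient 3 was the highest tumour for 5 of the 6, as it was for 21.3% of all genes tested, and wild type 2 was the highest for Oasl1, as for 12.8% of all genes. Wild type 5 was the lowest for 6 of 6, as for 19.0% of all genes, and wild type 3 the second lowest for 6 of 6. The summed FPKM of the 6 genes was 99.6, 67.9 and 61.2 in deficient 3, 4 and 5, against 72.4, 29.9 and 20.7 in wild type 2, 3 and 5. Wild type 2 therefore stood within the deficient range of this sum, and the other 2 wild-type tumours well under it.

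Leaving out wild type 2 moved the count of OAS genes called from 0 to 2, against 0.383% of all genes called higher in that fit. Those were Oas1a (log2 fold change 1.50, adjusted p = 0.0252 by limma) and Oas1g (1.37, adjusted p = 0.0495 by limma). Oasl2 reached 1.47 (limma adjusted p = 0.0592) and Oas2 1.43 (limma adjusted p = 0.0843) without it, while Oas3 reached 1.11 (0.125) and Oasl1 0.95 (0.198). Leaving out any other single library called none of the 6, with 0.0572% to 2.24% of all genes called higher. Without wild type 5 the log2 fold change of Oasl1 turned to -0.05, and it was above 0 in every other fit with 1 library left out for every OAS gene.

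**Figure D2:**
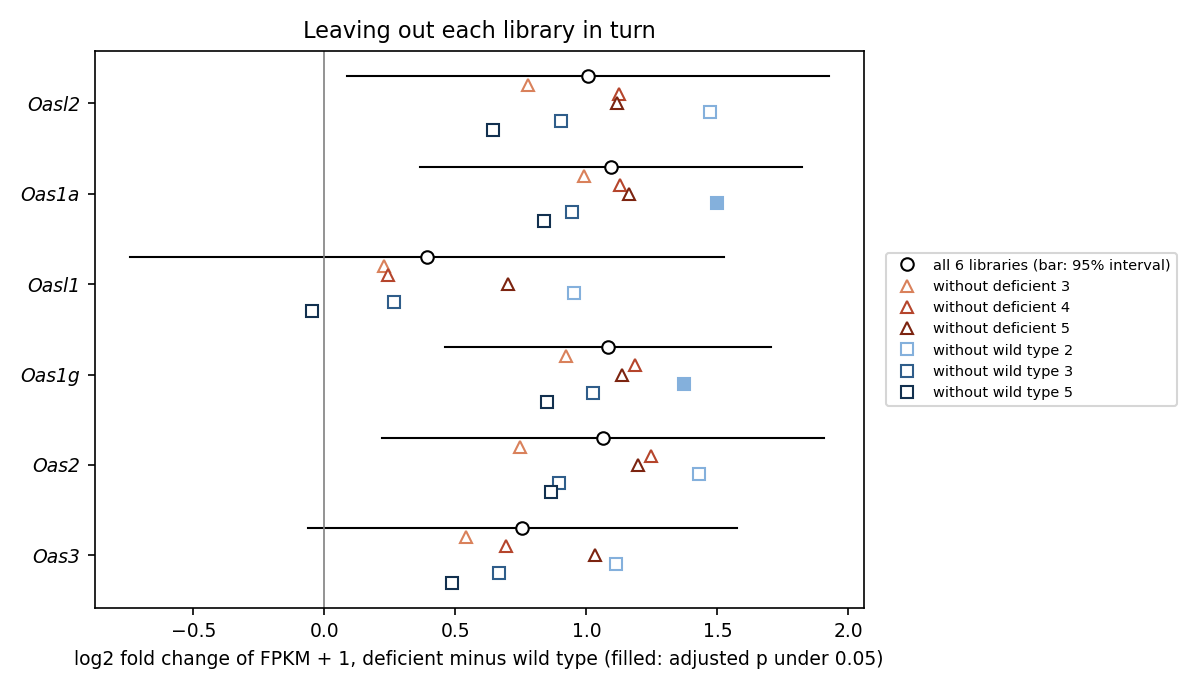
Log2 fold change of FPKM + 1, deficient minus wild type (x axis), of each OAS gene (rows) with all 6 libraries (circle, bar for the 95% interval) and without each library in turn; filled marks have an adjusted p under 0.05. The 2 filled marks are Oas1a and Oas1g without wild type 2, at 1.50 and 1.37.

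In level per transcript length, the order by mean FPKM over all 6 libraries was Oasl2, Oas1a, Oasl1, Oas1g, Oas2 and Oas3, and it held in the deficient means, while in the wild-type means Oas3 (1.85 FPKM) stood above Oas1g (1.82) and Oas2 (1.74). Oasl2 exceeded Oas1a in 6 of 6 libraries, by 2.21 to 3.03 times in FPKM. Oasl1 exceeded Oas1g in 6 of 6 libraries, by 1.14 to 4.62 times. The other neighbours were not separated in every library: Oas1a was above Oasl1 in 5 of 6, Oas1g above Oas2 in 4 of 6 and Oas2 above Oas3 in 3 of 6. Oasl2 made up a similar share of the summed OAS FPKM everywhere, 53.1%, 47.5% and 53.3% in deficient 3, 4 and 5, beside 50.1%, 53.3% and 52.3% in wild type 2, 3 and 5. The share of Oasl1 varied most, at 10.4%, 14.9% and 7.99% in deficient 3, 4 and 5, beside 19.4%, 16.1% and 13.3% in wild type 2, 3 and 5. The share of Oas1g was 6.12%, 5.80% and 7.0% in deficient tumours and 4.20%, 4.97% and 4.58% in wild-type tumours. That of Oas2 was 7.31%, 4.62% and 5.61% in deficient tumours and 4.49%, 3.42% and 4.54% in wild-type tumours. On this compositional measure the groups did not overlap for Oas1g and Oas2 and overlapped for the other 4. The Oas2 gap was narrow, 4.62% in deficient 4 against 4.54% in wild type 5, and the Oas1g share carries the uncertain split with Oas1a. A lower share of 1 gene raises the shares of the others. No test was run on the shares, and no like measure over all genes was made. The fragments behind these values, recovered from the spacing of the FPKM, numbered 74 for Oas1g in wild type 5 at the lowest and 6186 for Oasl2 in deficient 3 at the highest.

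Genes flanking the OAS genes on chromosome 5 had log2 fold changes between -0.13 and 0.18, none of them called, or were barely expressed. Beside the Oas cluster, Ptpn11, a phosphatase of growth factor signalling, had a log2 fold change of -0.06 (limma adjusted p = 0.839) and the ribosomal protein gene Rpl6 one of -0.13 (limma adjusted p = 0.700). Beside the Oasl pair, Git2 had -0.09, Ankrd13a -0.04 and Sppl3 0.05. The gene models 2610524H06Rik and 2210016L21Rik, also beside that pair, had 0.18 (limma adjusted p = 0.655) and 0.07. Dtx1, Rph3a and Rasal1, also next to the Oas cluster, were at 0.167 FPKM or less in every library.

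Among other Oas1 copies, 1 of 6 had a row. Oas1c had 2.13, 1.91 and 1.10 FPKM in deficient 3, 4 and 5, against 1.17, 1.01 and 0.807 FPKM in wild type 2, 3 and 5 (log2 fold change 0.43, limma adjusted p = 0.304). Unlike the 6 OAS genes above, it did not set wild type 2 far above wild type 3 and 5.

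Downstream of the synthetases, the genes that remove or modulate 2-5A showed no common direction. Of 4 genes tested, 2 were higher and 2 lower, and their median was 0.03 on the log2 scale. The 1 gene of these 4 that was called, Enpp1, a phosphodiesterase that can degrade 2-5A and the cGAS product cGAMP, fell to 4.31, 3.79 and 3.63 FPKM in deficient tumours, against 6.06, 6.497 and 7.02 FPKM in wild-type tumours (log2 fold change -0.62, SE 0.10; limma adjusted p = 0.043). That call was lost whenever 1 library was left out, with limma adjusted p between 0.0555 and 0.194. Over all genes tested 0.228% were called lower.

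Other double-stranded RNA sensors and relatives of the OAS and Mx proteins by fold were taken next. Of 9 tested sensors and effectors, 7 were higher, 2 lower and 0 called, and their median was 0.21. The one farthest from 0 was Zbp1, a Z-nucleic acid sensor of cell death, at 64.1, 36.3 and 52.1 FPKM in deficient 3, 4 and 5, against 27.7, 17.8 and 11.6 FPKM in wild type 2, 3 and 5 (log2 fold change 1.41, limma adjusted p = 0.090). The RNA sensor Ifih1 had a log2 fold change of 0.47 (limma adjusted p = 0.172). Eif2ak2, the kinase PKR, which like OAS is activated by double-stranded RNA, had 0.12 (limma adjusted p = 0.790). Cgas, the DNA sensor that shares the nucleotidyltransferase fold of OAS, had 3.32, 2.76 and 2.25 FPKM in deficient 3, 4 and 5, against 3.11, 3.02 and 2.15 FPKM in wild type 2, 3 and 5, and a log2 fold change of 0.01 (limma adjusted p = 0.991). Mb21d2, another gene of that fold, also had a log2 fold change of 0.01 (limma adjusted p = 0.981). Of 6 tested dynamins, the family to which Mx proteins belong, 1 was higher, 5 lower and 0 called. The dynamins with the smallest p were Dnm1, which pinches off endocytic vesicles (log2 fold change -0.40, limma adjusted p = 0.294), and Mfn1, which fuses mitochondria (-0.15, limma adjusted p = 0.478).

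Upstream, interferon ligands were at or near 0: 5 of 20 type I and III ligand genes had a row and none passed the filter. Ifnb1, the gene of interferon beta, had 0.139, 0.0632 and 0.138 FPKM in deficient 3, 4 and 5, against 0.362, 0.501 and 0.0667 FPKM in wild type 2, 3 and 5. Of 8 tested receptor and kinase genes 7 were higher, 1 lower and 0 called (median 0.16). Ifnar1 and Ifnar2 each had a log2 fold change of 0.11 (limma adjusted p = 0.729 and 0.714), Jak2 had 0.24 (limma adjusted p = 0.209) and Tyk2 0.29 (limma adjusted p = 0.397).

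The factors that drive OAS transcription, ISGF3 components and interferon regulatory factors, ranged in log2 fold change from 0.08 (Irf3) to 0.75 (Irf1). Of 5 tested genes 5 were higher, 0 were called and the median log2 fold change was 0.47. Irf1, a factor induced by interferon gamma, had a log2 fold change of 0.75 (limma adjusted p = 0.133), Stat2 0.54 (limma adjusted p = 0.333) and Irf9 0.44 (limma adjusted p = 0.322). Irf7, the factor that amplifies type I interferon and whose mRNA Oasl1 restrains, had 54.4, 42.7 and 26.5 FPKM in deficient 3, 4 and 5, against 56.0, 29.0 and 13.7 FPKM in wild type 2, 3 and 5 (log2 fold change 0.47, limma adjusted p = 0.684). Like Oasl1, Irf7 was highest in wild type 2. Of 6 tested inhibitors of interferon signalling 5 were higher, 1 lower and 0 called (median 0.41). Usp18, the Isg15 protease that blocks Ifnar2, had 15.4, 15.03 and 6.25 FPKM in deficient 3, 4 and 5, against 20.5, 5.22 and 4.12 FPKM in wild type 2, 3 and 5 (log2 fold change 0.49, limma adjusted p = 0.727). Socs1, the Jak inhibitor, had a log2 fold change of 0.80 (limma adjusted p = 0.056) and the phosphatase gene Ptpn6 0.84 (limma adjusted p = 0.122).

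Other interferon-stimulated genes are described as a type I list and an interferon gamma list, and no test of a difference between the lists was run. The list names do not separate the kinds of interferon, since a gene can respond to both, as Cxcl10 of the interferon gamma list does. Irgm1, also of that list, is among the 10 genes most like the OAS genes below. Which interferon acted on these genes was not tested. Over all genes tested, 54.7% were higher, 11.8% lay higher with no overlap and 0.979% were called higher. Of 26 tested type I genes 26 were higher, 4 had no overlap and 0 were called, and their median was 0.47 on the log2 scale. Wild type 2 was the highest tumour for 7 of them, Ifit1, Ifit2, Ifit3, Ifit3b, Isg15, Rsad2 and Cmpk2, and deficient 3 for 14. Over all genes tested these shares were 12.8% for wild type 2 and 21.3% for deficient 3. The genes of this list with the smallest p were Epsti1 (log2 fold change 0.75, limma adjusted p = 0.079) and Ifi27l2a (0.96, limma adjusted p = 0.193). Of 18 tested interferon gamma genes 18 were higher, 17 had no overlap and 8 were called higher, with a median of 1.25. Wild type 2 was the highest tumour for none of these 18 and deficient 3 for 14. The called genes included the immunoproteasome subunits Psmb9 (log2 fold change 1.41, limma adjusted p = 0.008) and Psmb8 (1.34, limma adjusted p = 0.009), the peptide transporter Tap1 (0.97, limma adjusted p = 0.016) and the guanylate-binding protein gene Gbp4 (1.64, limma adjusted p = 0.012). The other 4 were Gbp2 (1.56), Gbp3 (1.68), Gbp7 (1.03) and the class I transactivator Nlrc5 (0.61), with limma adjusted p between 0.034 and 0.047. With 1 library left out, only Psmb8 and Psmb9 stayed called in every fit, at a limma adjusted p of 0.048 at most. The highest limma adjusted p was 0.057 for Gbp4, 0.067 for Tap1 and 0.130 for Gbp2. It was 0.166 for Gbp3, 0.198 for Gbp7 and 0.185 for Nlrc5. Over all pathway lists together 9 of 85 tested genes were called (8 higher and 1 lower), against 1.21% of all genes called in either direction. Without deficient 3 or deficient 5 there were 3 each, without wild type 3 there were 2, without wild type 2 or wild type 5 there were 6 each, and without deficient 4 there were 16. With no filter on low values 2 were called.

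**Figure D3:**
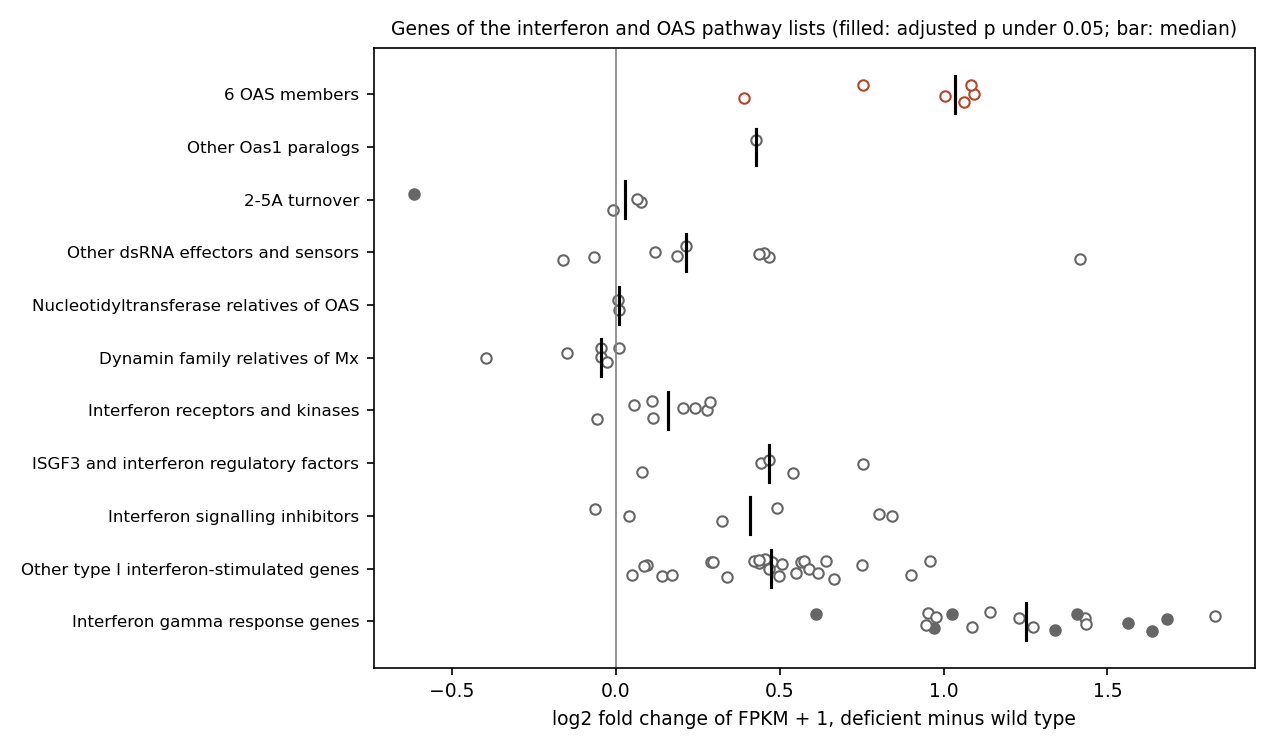
Log2 fold change of FPKM + 1, deficient minus wild type (x axis), of each tested gene in the OAS family and in 10 pathway lists (rows); points are genes, filled where the adjusted p is under 0.05, and bars are medians. The medians are 1.03 for the OAS genes, 0.47 for the type I list and 1.25 for the interferon gamma list, and single genes of the lists overlap in range.

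The place of wild type 2 can be put as its distance from the mean of wild type 3 and 5 in log2(FPKM + 1), set beside the same distance for the mean of the deficient tumours. This measure was set up after the values were seen, both distances share wild type 3 and 5, and no test was run on it. The median distance of the 6 OAS genes was 1.40 for the deficient mean and 1.16 for wild type 2. In the 26 type I genes the medians were 0.74 for the deficient mean and 0.65 for wild type 2, and in the 18 interferon gamma genes they were 1.43 for the deficient mean and 0.33 for wild type 2. Over all genes tested both medians were 0.03. Single genes crossed the lists: for wild type 2 the interferon gamma genes Cxcl10 and Tgtp1 lay at 2.09 and 1.18, and the type I genes Epsti1 and Ifi35 at 0.24 and 0.33. Oasl1 lay at 0.95 for the deficient mean and 1.69 for wild type 2, and Oasl2 at 1.47 for the deficient mean and 1.40 for wild type 2. Oas1g, at 1.37 for the deficient mean, had the smallest distance of the 6 for wild type 2, 0.88. Ranked by the distance of wild type 2 among all 12257 genes, Ifit1 was first at 2.19, Oasl1 8th, Oasl2 15th, Oas1a 25th, Oas2 34th, Oas3 36th and Oas1g 55th. The pseudocount of 1 understates the distance of low genes, so the order among the OAS genes also depends on their level. The first 50 genes held 5 OAS genes, 9 genes of the type I lists and 2 of the interferon gamma list.

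**Figure D4:**
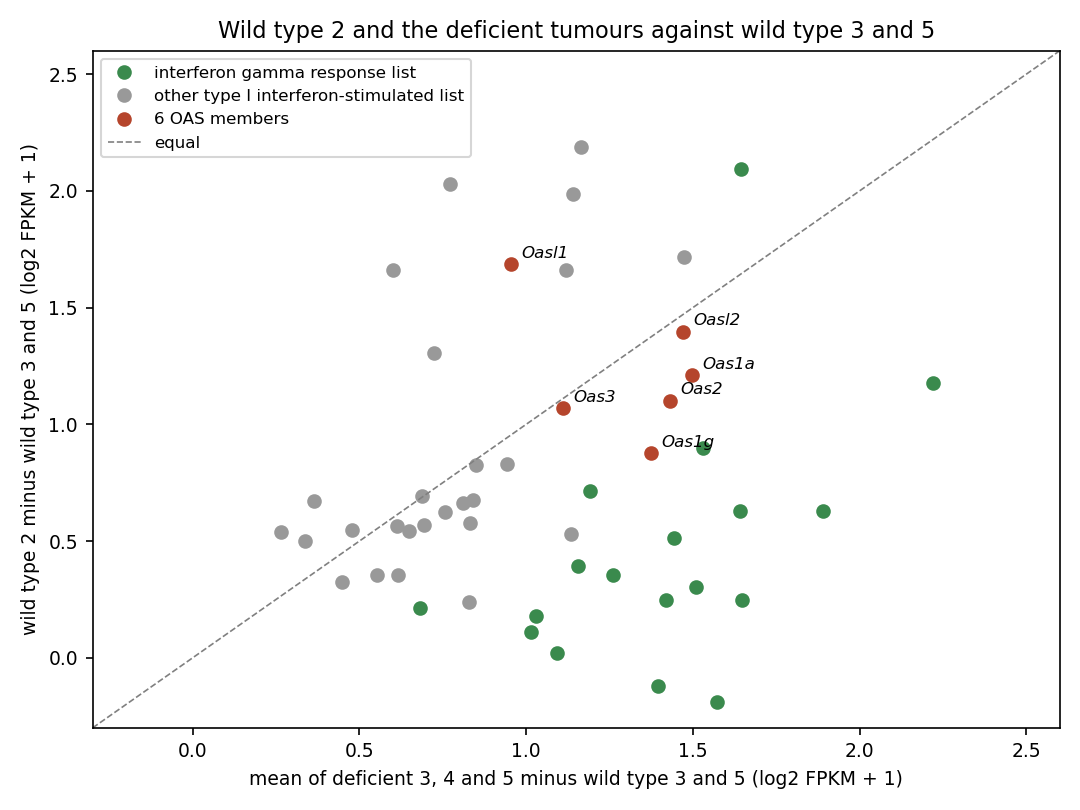
Distance from the mean of wild type 3 and 5 in log2(FPKM + 1), for the mean of the deficient tumours (x axis) and for wild type 2 (y axis); points are genes, and the dashed line marks equal distances. Oasl1 lies above the line at 0.95 (x) and 1.69 (y), the other 5 OAS genes lie under it, and most interferon gamma genes lie under it, such as Psmb9 at 1.51 (x) and 0.30 (y) and Gbp2 at 1.65 (x) and 0.25 (y).

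Genes with the pattern most like that of the OAS family were found by centring log2(FPKM + 1) on its mean over the 6 libraries and taking the root mean square difference from the average of the 6 OAS genes. The 6 OAS genes themselves lay at 0.12 to 0.37 by this measure, and the median of the other 12251 genes was 0.65. Nearest were the apolipoprotein L genes Apol9b (0.13) and Apol9a (0.14). Then came Phf11b (0.20), the interferon-inducible GTPase Tgtp2 (0.20), the chemokine Ccl4 (0.20), the helicase Ddx60 (0.20), Slfn8 (0.21), the GTPase Irgm1 (0.21) and the p200 family genes Ifi206 (0.22) and Ifi209 (0.22). Apol9b had 19.3, 16.1 and 9.93 FPKM in deficient 3, 4 and 5, against 12.9, 6.47 and 4.33 FPKM in wild type 2, 3 and 5. The first 50 genes held 14 of the 47 tested genes of the type I lists (stimulated genes, factors, sensors, inhibitors and Oas1 copies) and 3 of the 18 interferon gamma genes.

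**Figure D5:**
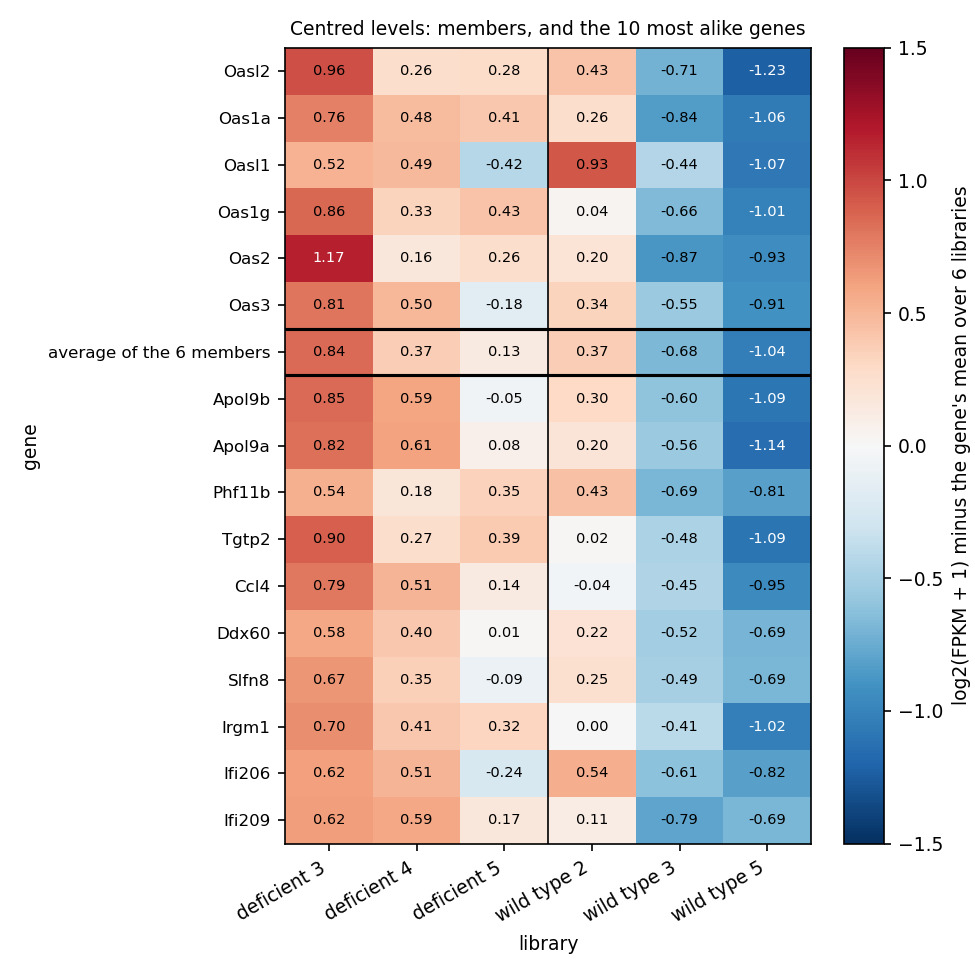
Log2(FPKM + 1) of each gene minus its mean over the 6 libraries (colour and printed number) for the 6 OAS genes, their average and the 10 genes most like it (rows) in each library (columns). The average of the OAS genes is 0.84 in deficient 3, 0.37 in wild type 2, -0.68 in wild type 3 and -1.04 in wild type 5.

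The tissue label was read against marker genes, since whole tumours hold many cell types. The 7 tumour epithelial markers summed to 462.6 to 640.5 FPKM in deficient and 485.3 to 574.9 FPKM in wild-type tumours (5 of 7 higher, 2 lower, 0 called, median log2 fold change 0.07). Krt8 and Krt18, the keratins of simple epithelia, made up most of that sum and had log2 fold changes of 0.07 and 0.06. The markers did not move together: Epcam had 1.66 and Cdh1 0.61, whereas Krt7 had -0.12 and Msln -1.06. Krt19, a keratin of pancreatic duct cancers singled out after its values were seen, had 40.2, 37.5 and 36.9 FPKM in deficient 3, 4 and 5, against 44.9, 12.01 and 10.7 FPKM in wild type 2, 3 and 5. The summed FPKM of 7 fibroblast markers was 1704 to 2638 in deficient tumours and 1934 to 5511 in wild-type tumours, with wild type 2 the lowest of its group, 6 of 7 lower and 0 called. The 13 macrophage and monocyte markers summed to 4179 to 7170 FPKM in deficient and 4103 to 4556 FPKM in wild-type tumours (12 of 13 higher, 2 called). Over all genes tested 0.979% were called higher. The largest part of this sum was Lyz2, which was lowest of all tumours in deficient 4 (1918 FPKM). The called genes were Ly6c2 (log2 fold change 2.56) and Ccr2 (1.39), while Adgre1 had 0.20 and Cd14, the 1 lower gene, -0.26. The 11 T and NK cell markers with a row summed to 50.6 to 70.0 FPKM in deficient and 23.3 to 31.2 FPKM in wild-type tumours (8 of 9 tested higher, 5 called). The 6 B and plasma cell markers with a row summed to 20.8 to 112.8 FPKM in deficient and 7.21 to 15.4 FPKM in wild-type tumours (4 of 4 tested higher, 2 called). Most of the B and plasma cell sum was Jchain, which was not called (limma adjusted p = 0.152). The 7 markers of plasmacytoid dendritic cells, the main source of type I interferon in many infections, summed to 194.6 to 242.1 FPKM in deficient and 91.9 to 166.3 FPKM in wild-type tumours (3 of 3 tested higher, 1 called, Ly6d). Most of that last sum was Bst2, itself an interferon-stimulated gene, and the defining marker Siglech, too low to be tested, had 0.366, 0.317 and 1.07 FPKM in deficient 3, 4 and 5, against 0.0357, 0.0995 and 0.145 FPKM in wild type 2, 3 and 5, with no overlap. The 3 tested were Bst2, Cox6a2 and Ly6d. Ly6d had 4.33, 6.34 and 20.7 FPKM in deficient 3, 4 and 5, the same order as the B and plasma cell marker Mzb1 (2.71, 5.54 and 8.91 FPKM). Whether these 3 genes mark plasmacytoid dendritic cells in these tumours was not tested. The 8 adipocyte markers summed to 142.0 to 516.3 FPKM in deficient and 57.0 to 160.4 FPKM in wild-type tumours (7 of 8 higher, 0 called). Genes of the Y chromosome were near 0 in deficient tumours and present in wild-type tumours: Ddx3y had 0.044, 0.126 and 0.00 FPKM in deficient 3, 4 and 5, against 3.13, 5.26 and 6.79 FPKM in wild type 2, 3 and 5. The labels give no sex, and whatever sets the Y-linked genes apart cannot be told apart from the genotype here. The part of these cell types in the OAS values was not tested.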

How the data were processed

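RNA of whole tumours was extracted with TRIzol and sequenced as 150 bp paired-end reads from VAHTS Universal V6 libraries, per the labels' protocols. HISAT2, HTSeq and R 3.2.0 appear in the submitters' processing notes, with no step assigned to any of them. Which genome build the reads were aligned to is not given in the sources used here. The authors deposited 1 table of 17352 genes, taken to be FPKM from the values because no header names the unit: for 17275 genes (99.56%) the 6 values gave whole fragments at 1 length per gene (tolerance 0.0001), and the recovered fragments made up 99.26% to 99.34% of the implied depth. The shortest length that gave whole fragments was used, so recovered fragments of a gene can be too low by 1 factor common to all libraries.

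Samples were grouped by the genotype label. FPKM was put on the log2 scale with a pseudocount of 1, which understates changes of low genes, and 12257 genes with a mean of at least 0.5 FPKM were fitted with limma 3.58.1 (variance trend, no block) in R 4.3.3. P-values are two-sided and adjusted by Benjamini-Hochberg over all genes tested, and genes with an adjusted p under 0.05 were called. The fit was tried on simulated data with noise drawn separately for each gene. Such data hold no genes that vary together across tumours, as the OAS genes do, so error rates from them need not hold here. The members, gene lists and motifs were chosen with earlier results of these data known, so their patterns are no independent evidence. Named genes are the members, the called genes of each list or else the 2 with the smallest p, 9 preset pathway genes and the 10 genes most like the members, leaving out unnamed models; neighbours, Anxa1 and markers are given as context. Of the preset pathway genes, 2 are not reported here and were left out of the list counts. Alternatives were other pseudocounts, filters, scalings and thresholds, no variance trend, blocking on the replicate number, leaving out 1 library at a time and, added after the data were seen, limma-voom on recovered fragments. Promoters came from RefSeq (GRCm38.p6) and transcript stretches from GENCODE; sequences were aligned with Biopython 1.88.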

Additional observations from a re-analysis of the deposited data

How the results depend on the processing

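For the 6 OAS genes, other pseudocounts, filters, scalings, the fit without a variance trend, the looser threshold and limma-voom kept every direction and called 0. Sizes moved more for low genes. Log2 fold changes ran from 1.06 to 1.52 for Oas1g, 1.04 to 1.54 for Oas2 and 0.73 to 1.13 for Oas3. They ran from 1.07 to 1.22 for Oas1a, 0.36 to 0.48 for Oasl1 and 0.97 to 1.05 for Oasl2. The largest was Oas1a in the main fit and Oas2 at a pseudocount of 0.01. In these settings the median log2 fold change of all genes ran from -0.02 to 0.02. Leaving out 1 library gave log2 fold changes of 0.84 to 1.50 for Oas1a, 0.85 to 1.37 for Oas1g, 0.75 to 1.43 for Oas2, 0.49 to 1.11 for Oas3, -0.05 to 0.95 for Oasl1 and 0.64 to 1.47 for Oasl2, with 0 to 2 of the 6 called; Oasl1 reversed to -0.0475 without wild type 5, and the cause was not tested. Leaving out 1 library gave 10 to 344 genes called, against 148 (120 higher and 28 lower) with all 6, and 2 to 16 genes of the pathway lists, against 9.

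Other settings moved counts. With no filter on low values 18 genes and 2 pathway list genes were called, with a threshold of 0.10 there were 308 and 19, and with limma-voom 90 genes.

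The replicate block takes equal numbers as pairs, which the labels do not state. The deviations of the 2 same-numbered pairs correlated at -0.09 and -0.01, and those of differently numbered libraries at -0.21 to 0.22, so no pairing is stated or shown, and 2 pairs cannot settle it. Only numbers 3 and 5 occur in both groups, so the block fit compares those libraries and leaves out the contrast of wild type 2 and deficient 4. It called 987 genes (5.16% of all genes higher), 45 pathway list genes and 6 of 6 OAS genes, with log2 fold changes of 1.53 for Oas1a, 1.48 for Oas1g, 1.61 for Oas2, 1.05 for Oas3, 0.81 for Oasl1 and 1.59 for Oasl2 (limma adjusted p between 4.28e-04 and 0.0188). The fit keeps 1 residual degree of freedom of its own. Libraries held 37465504 to 41071630 fragments, and each OAS value rests on 74 fragments or more; the part of depth was not tested.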

Other observations

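Genes with the reverse of the OAS pattern were looked for after the values were seen, by the root mean square difference of the centred log2 values from the OAS average with its sign turned. The nearest were Fap (0.26), a protease of activated fibroblasts, and Pdgfra (0.27), a receptor for platelet-derived growth factor on fibroblasts. Fap had 2.004, 2.48 and 2.59 FPKM in deficient 3, 4 and 5, against 2.06, 4.09 and 5.80 FPKM in wild type 2, 3 and 5. Pdgfra had 16.6, 19.4 and 20.9 FPKM in deficient 3, 4 and 5, against 20.1, 27.9 and 40.3 FPKM in wild type 2, 3 and 5. Neither was called (log2 fold change -0.50, limma adjusted p = 0.431 for Fap; -0.56, limma adjusted p = 0.307 for Pdgfra). The third was Gadd45a (0.29), a growth arrest gene, with 49.98, 68.6 and 70.2 FPKM in deficient tumours and 67.9, 136.6 and 104.8 FPKM in wild-type tumours.

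Among the 15 genes in which wild type 2 stood farthest above wild type 3 and 5, Krt19 ranked between interferon-stimulated genes, at a distance of 1.90 in log2(FPKM + 1). Cxcl10, a chemokine induced by both kinds of interferon, was second at 2.09. It had 49.6, 37.0 and 25.0 FPKM in deficient 3, 4 and 5, against 49.3, 16.5 and 6.93 FPKM in wild type 2, 3 and 5.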
